A study of Mus musculus with 15 samples.

Results

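The secreted plasma protein genes Alb, Gc, Ahsg, Fga, Fgb, Hp, Ambp, Apoa1, Apoa2 and Apoc3 were followed library by library through bulk RNA-seq of mouse thalamus. They are 10 of the 29659 genes in the files, were listed by name, selected on earlier results of the same libraries, those of 5ELKO against 5EL among them, and all 10 had a value in every library. The mice were 4.5 months old, and every group was homozygous for human APOE4 in place of mouse Apoe. The 5EL group (n = 5 libraries) also carried the 5xFAD amyloid transgenes, driven in neurons by the Thy1 promoter, with Lilrb4a intact. The 5ELKO group (n = 4) had the same alleles and lacked both copies of Lilrb4a (Lilrb4a-/-); the methods name no cell type to which the knockout is limited. The EL (n = 3) and ELKO (n = 3) groups had APOE4 with Lilrb4a intact and deleted, respectively, and no 5xFAD. The mice were perfused with ice-cold saline before the brain was taken, and the study states that experiments not split by sex used males. Its quality-control table lists separate animals for 5EL and 5ELKO, with more 5ELKO animals than there are 5ELKO libraries here. Which of them is absent is not stated. The RNA integrity numbers listed there reach lower in 5ELKO than in 5EL, and their part in the differences was not tested. For EL and ELKO the labels number the replicates without stating that each came from a separate animal, so p-values that rest on those groups measure the spread between these libraries, which may in part be technical. The question asked of the 10 genes was whether they keep fixed proportions to each other from library to library.

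Albumin, the fibrinogen chains, haptoglobin and most apolipoproteins of blood are made by hepatocytes and secreted, so that the proteins circulate while their mRNAs stay in the liver. A healthy thalamus holds neurons, glia and vessels and is not known as a site of albumin or fibrinogen synthesis. Hepatocyte genes of this kind are switched on together by a small set of liver transcription factors, among them HNF1, HNF4 and C/EBP. In bulk tissue, fewer cells of a type and less RNA per cell cannot be told apart, and the same holds for transcript brought in from outside the tissue.

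The values are log2 expression, normalized by the authors, and low genes have a narrow spread, as after a transform that draws them towards their own mean, so a difference of a low gene may be understated. Lilrb4a was at most 2.33 in 5ELKO and ELKO, between 2.34 and 2.42 in EL, and between 2.40 and 2.66 in 5EL. These values are under the minimum used for testing, given below, in all groups. Mouse Apoe lay between 5.92 and 6.37 in 14 libraries and at 10.9 in the library labelled ELKO replicate 1, against the APOE4 genotype of its label, and the counts, contrasts, slopes and likeness measures that use it are also given without it. All 8 thalamus markers on the list reached the minimum used for testing, a log2 value equal to about 10 on the linear scale, with Tcf7l2 between 12.8 and 13.2 and Prkcd between 13.2 and 14.7. For most of the 10 plasma protein genes, EL replicate 1 stood apart from the other 2 EL libraries, and the choroid plexus markers, whose summed linear level (2 to the power of each value, added over the list) was between 5083 and 7456 in 13 libraries, reached 33162 in 5EL replicate 1 and 51661 in ELKO replicate 2.

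The positions are those of GRCm38, the authors' build, in the GENCODE M21 annotation, where all 10 are protein-coding genes. Alb (chr5:90460897-90476602, plus strand) and Gc (chr5:89417522-89457898, minus strand) lie 1002998 bases apart. Fga (chr3:83026076-83033627, plus) and Fgb (chr3:83040141-83049863, minus) are separated by 6513 bases. Apoa1 (chr9:46228580-46230466, plus) and Apoc3 (chr9:46232933-46235636, minus) are separated by 2466 bases. The remaining members stand alone: Hp (chr8:109575128-109579172, minus), Ambp (chr4:63143275-63154799, minus), Ahsg (chr16:22891277-22899449, plus) and Apoa2 (chr1:171225054-171226379, plus). The exons of Ahsg overlap those of Gm30505 on the opposite strand, and reads were counted without regard to strand, so reads of these genes in the overlap cannot be told apart.

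Promoter sequence was in the RefSeq table (GRCm38.p6) for 8 of the 10 members, Hp and Apoc3 being the others. The letters GTTAAT, the core that HNF1 recognises, or their reverse complement ATTAAC occurred in the 300 bases around the start (250 before, 50 after) in 4 of these 8, Alb, Gc, Fga and Fgb, against 7.1% of all 32851 promoters in the table. All motifs were searched on both strands, and none of the 4 matches overlapped another motif. The 4 promoters are printed for this shared match with that of Apoa1, which lacks it, from 100 bases before the start to 50 bases after it, 5′ to 3′ on the gene's strand. Capitals mark GTTAAT or ATTAAC. The spans are chr5:90460770-90460919 (plus) for Alb, chr5:89457849-89457998 (minus) for Gc, chr3:83026053-83026202 (plus) for Fga, chr3:83049814-83049963 (minus) for Fgb and chr9:46228530-46228679 (plus) for Apoa1.
Alb: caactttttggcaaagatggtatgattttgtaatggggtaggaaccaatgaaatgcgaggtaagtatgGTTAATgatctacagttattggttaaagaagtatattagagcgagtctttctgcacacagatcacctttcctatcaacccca
Gc: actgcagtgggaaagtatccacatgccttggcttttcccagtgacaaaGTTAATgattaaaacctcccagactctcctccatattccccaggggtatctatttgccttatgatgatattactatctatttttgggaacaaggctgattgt
Fga: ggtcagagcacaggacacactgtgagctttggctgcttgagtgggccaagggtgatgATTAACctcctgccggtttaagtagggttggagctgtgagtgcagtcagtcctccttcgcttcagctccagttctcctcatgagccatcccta
Fgb: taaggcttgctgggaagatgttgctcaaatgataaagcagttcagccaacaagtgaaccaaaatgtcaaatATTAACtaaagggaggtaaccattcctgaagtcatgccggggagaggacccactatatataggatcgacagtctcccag
Apoa1: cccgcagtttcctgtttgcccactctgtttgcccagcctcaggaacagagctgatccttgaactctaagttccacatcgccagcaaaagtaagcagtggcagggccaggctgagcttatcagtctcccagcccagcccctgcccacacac

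The motif began 32 bases before the RefSeq start in Alb, 52 in Gc, 43 in Fga and 29 in Fgb. For Alb, Fga and Apoa1 the RefSeq start differs from the GENCODE gene start given above. In Fga the motif lies after the GENCODE gene start. Of the other motifs searched, the CCAAT box CCAAT was in 5 of the 8 promoters (Ahsg, Alb, Ambp, Apoa2 and Gc) against 37.4% of all, the TATA box TATAAA was in that of Apoa2 against 13.6% of all, and CAAAGTCCA, letters bound by HNF4, was in 0 of 8 against 0.475%. A match of letters is a description of the window and not a measured binding site.

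Alb, the main carrier protein of plasma, moved furthest of the 10. In 5EL its log2 value was 6.55, 6.55, 5.78, 5.77 and 5.82 in replicates 1 to 5, and in 5ELKO it was 8.18, 7.22, 8.38 and 8.01 in replicates 1 to 4. In EL it was 8.59, 5.91 and 5.75, and in ELKO 5.69, 6.23 and 5.81. The 4 5ELKO libraries and EL replicate 1 were thus above the other 10 libraries, and the highest value of all came from EL replicate 1, a library with Lilrb4a and without 5xFAD. The difference of 5ELKO from 5EL was 1.85 (SE 0.24) in log2. This contrast was known when the genes were listed, so its values for the members are a description and carry no test here.

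**Figure D1:**
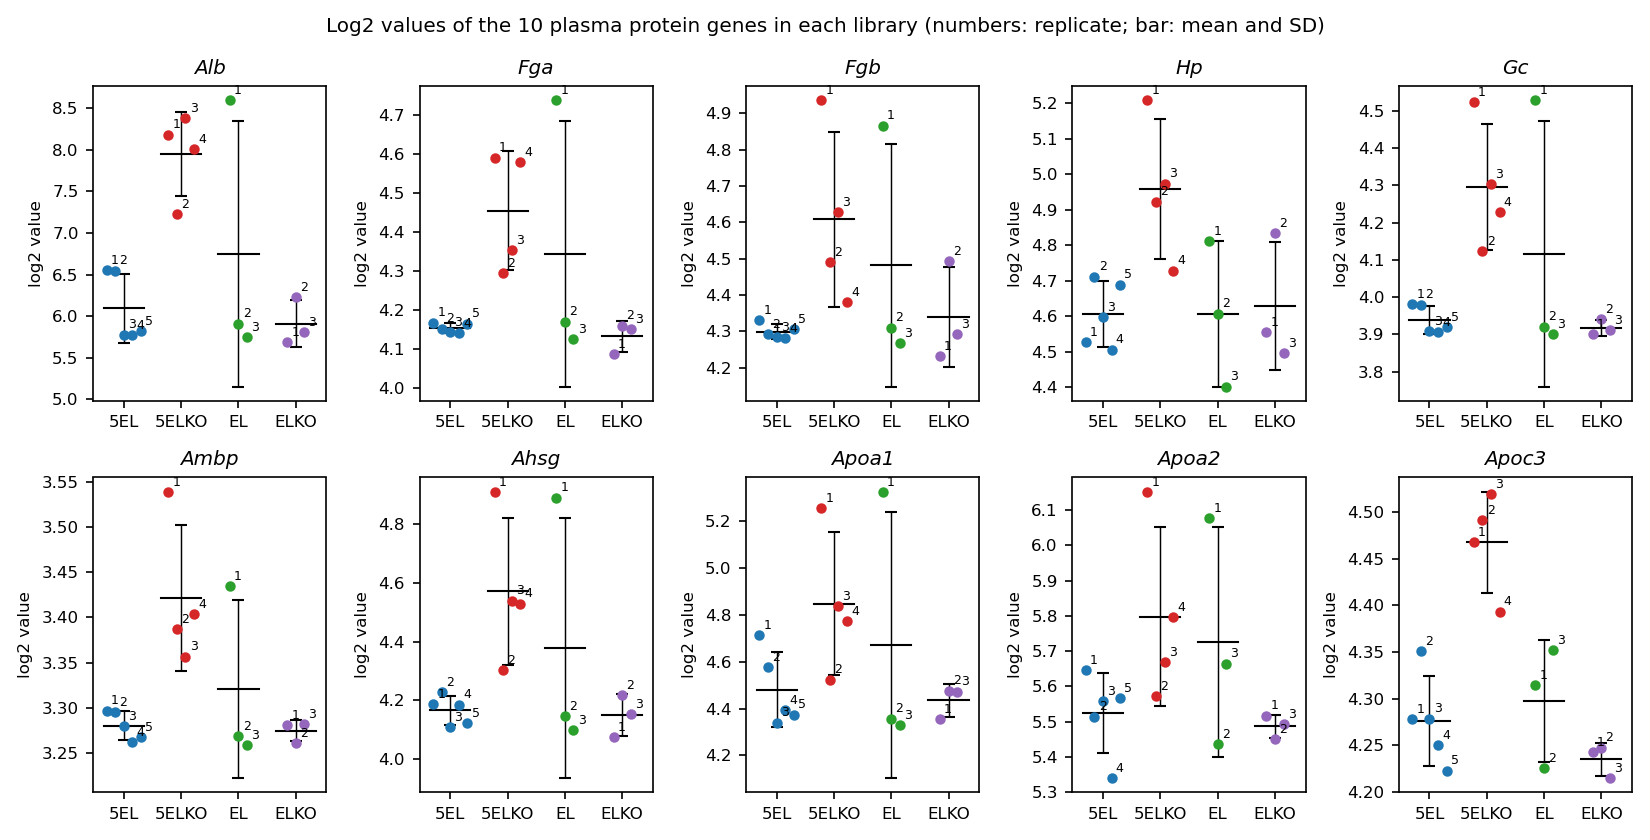
Deposited log2 expression (vertical axes, a separate range for each gene) of the 10 genes in each library, as points numbered by replicate, by genotype group (5EL n = 5, 5ELKO n = 4, EL n = 3, ELKO n = 3), with wide bars at group means and error bars of 1 SD. EL replicate 1 sits with the 5ELKO libraries for most genes, as for Alb at 8.59, and lies within the other libraries for Apoc3 at 4.31.

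The binding proteins Gc, which carries vitamin D and free actin, and Ahsg, the fetuin that binds calcium phosphate, had much of the pattern of Alb at a smaller scale. Gc was 3.98, 3.98, 3.91, 3.91 and 3.92 in 5EL, 4.52, 4.12, 4.30 and 4.23 in 5ELKO, 4.53, 3.92 and 3.90 in EL, and 3.90, 3.94 and 3.91 in ELKO. Ahsg was 4.19, 4.23, 4.11, 4.19 and 4.12 in 5EL, 4.91, 4.30, 4.54 and 4.53 in 5ELKO, 4.89, 4.15 and 4.10 in EL, and 4.08, 4.22 and 4.15 in ELKO. For both genes the lowest 5ELKO library was above the highest 5EL library, and EL replicate 1 was close to 5ELKO replicate 1. The 5ELKO minus 5EL difference was 0.36 (SE 0.065) for Gc and 0.40 (SE 0.091) for Ahsg.

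Fga and Fgb encode the alpha and beta chains of fibrinogen, which hepatocytes assemble with the gamma chain before secretion. Fga was 4.17, 4.15, 4.14, 4.14 and 4.16 in 5EL and 4.59, 4.30, 4.35 and 4.58 in 5ELKO. It was 4.74, 4.17 and 4.13 in EL and 4.09, 4.16 and 4.15 in ELKO. The 5EL libraries spanned 4.14 to 4.17 for Fga, so that nearly all of its spread lay in the 4 5ELKO libraries and EL replicate 1. Fgb was 4.33, 4.29, 4.28, 4.28 and 4.31 in 5EL and 4.94, 4.49, 4.63 and 4.38 in 5ELKO. It was 4.87, 4.31 and 4.27 in EL and 4.23, 4.49 and 4.29 in ELKO. ELKO replicate 2, whose Fga was 4.16, was among the 5 highest libraries for Fgb, above 5ELKO replicate 4. The 5ELKO minus 5EL difference was 0.30 (SE 0.060) for Fga and 0.31 (SE 0.087) for Fgb.

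Hp encodes haptoglobin, an acute-phase protein that binds free haemoglobin, and Ambp encodes the precursor of alpha-1-microglobulin and bikunin. Hp was 4.53, 4.71, 4.60, 4.51 and 4.69 in 5EL, 5.21, 4.92, 4.97 and 4.73 in 5ELKO, 4.81, 4.61 and 4.401 in EL, and 4.56, 4.83 and 4.497 in ELKO. EL replicate 1 was the fifth highest library for Hp, below ELKO replicate 2. Ambp was 3.30, 3.29, 3.28, 3.26 and 3.27 in 5EL, 3.54, 3.39, 3.36 and 3.40 in 5ELKO, 3.43, 3.27 and 3.26 in EL, and 3.28, 3.26 and 3.28 in ELKO. Ambp reached the minimum in the 4 5ELKO libraries and EL replicate 1 and in 0 of the other 10, so it was tested only because it was high there. The other 9 members reached it in all 15 libraries. The 5ELKO minus 5EL difference was 0.35 (SE 0.082) for Hp and 0.14 (SE 0.037) for Ambp. Hp is also a transcript of neutrophils, and of the 10 neutrophil markers on the list only Lcn2, which reactive astrocytes also make, reached the minimum, S100a8 being at most 1.86 and S100a9 at most 2.28 in any library. The summed linear level of that list was 43.7 to 119.6 in 5EL, 46.1 to 68.3 in 5ELKO, 43.9 to 45.9 in EL and 43.4 to 57.5 in ELKO.

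Apoa1 and Apoa2 encode the main proteins of high-density lipoprotein, and Apoc3 encodes an inhibitor of lipoprotein lipase. Apoa1 was 4.71, 4.58, 4.34, 4.39 and 4.37 in 5EL, 5.26, 4.52, 4.84 and 4.77 in 5ELKO, 5.32, 4.36 and 4.33 in EL, and 4.35, 4.48 and 4.47 in ELKO. Apoa2 was 5.65, 5.51, 5.56, 5.34 and 5.57 in 5EL, 6.15, 5.57, 5.67 and 5.80 in 5ELKO, 6.08, 5.43 and 5.66 in EL, and 5.52, 5.45 and 5.49 in ELKO. For both, EL replicate 1 and 5ELKO replicate 1 were the top libraries, and 5ELKO replicate 2 lay inside the range of 5EL. Apoc3 was 4.28, 4.35, 4.28, 4.25 and 4.22 in 5EL, 4.47, 4.49, 4.52 and 4.39 in 5ELKO, 4.31, 4.23 and 4.35 in EL, and 4.24, 4.25 and 4.21 in ELKO. It was the only one of the 10 for which EL replicate 1 was not the highest EL library, and the 4 5ELKO libraries alone stood above the rest. The 5ELKO minus 5EL difference was 0.37 (SE 0.12) for Apoa1, 0.27 (SE 0.10) for Apoa2 and 0.19 (SE 0.041) for Apoc3.

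Over the members, 10 of 10 differences of 5ELKO from 5EL were positive, with a median of 0.33 against 0.0016 over all 15746 genes tested. At the cut-offs of the study's exploratory threshold, here a nominal p under 0.05 in limma with a fold change over 1.2, 8 of the 10 were higher in 5ELKO, where 0.165% of all genes tested were, and 0 were lower, where 0.0889% were. The study used DESeq2 and lists more 5ELKO animals. Limma was run here on the deposited log2 values, in which low genes appear compressed, so its counts are not set against those of the study. The groups did not overlap for 8 of 10, all but Apoa1 and Apoa2, against 0.603% of all genes tested. At a Benjamini-Hochberg adjusted p under 0.05 the members held 1 gene, Alb, and 0.0191% of all genes tested passed. The list was drawn up with this contrast known, and these counts follow from it. The first of these counts fell to 4 of 10 without 5ELKO replicate 1, while all 10 differences stayed positive. All genes called in either direction then numbered 73, against 40 with all libraries. Just inside the fold threshold of 0.263 in log2 was Apoa2 at 0.27, and just outside it was Apoc3 at 0.19.

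ELKO against EL addresses the Lilrb4a deletion without 5xFAD, on libraries other than those of 5ELKO against 5EL. Results of all 15 libraries were known when the genes were listed, so the fit below is not independent of that choice. In ELKO against EL, 9 of the 10 members had a negative difference, with a median of -0.21 against 0.0033 over the 15805 genes tested, and Alb had -0.84 (SE 0.55). At the study's threshold 0 of 10 members were called, where 0.165% of all genes tested were higher in ELKO and 0.373% lower, and 0 had all ELKO libraries above all EL libraries, against 2.06% of all genes tested. In limma with Benjamini-Hochberg adjustment every member had an adjusted p of 0.998, 0 members and 0 of all genes passed at 0.05, and at an unadjusted p under 0.05 there were 0 members and 373 genes. An exact permutation test of 3 libraries against 3 cannot go below p = 0.1. The direction rested on EL replicate 1: without it the differences were 0.077 for Alb, 0.049 for Fgb, 0.0071 for Gc, 0.011 for Ambp, 0.026 for Ahsg and 0.091 for Apoa1, and 3 of the 10 stayed negative. For Alb, Fga, Fgb and Gc, the libraries then left, ELKO replicate 2 apart, had only the order of the lowest genes described below. The signs for these genes without EL replicate 1 are not read as differences in level. Without the library labelled ELKO replicate 1, 9 of 10 stayed negative, with a median of -0.19, and 0 were called. EL and ELKO libraries with the same replicate number shared part of their deviation from the group means, and with the replicate number as a block 0 members were called, while the genes called at the study's threshold rose from 85 to 288.

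The other contrasts share libraries with the one that chose the genes and are given side by side with no test. In 5EL against EL, 10 of 10 differences were negative with a median of -0.19, and 0 members were called (1.53% of all genes tested were higher in 5EL and 0.879% lower). None had all 5EL libraries above all EL libraries, against 1.68% of all genes tested. Without EL replicate 1, 2 of the 10 were negative. For Alb, Fga, Fgb and Gc the EL libraries then left had only the order of the lowest genes. In 5ELKO against ELKO, 10 of 10 were positive with a median of 0.33, 6 were called higher against 0.354% of all genes tested and 0 lower against 0.0443%, and the groups did not overlap for 8 of 10 against 1.78%. Alb had a difference of 2.04 (SE 0.51) there, and Fga one of 0.32 (SE 0.11). Without the library labelled ELKO replicate 1 these were 1.93 and 0.30, and the median was 0.31. The groups then did not overlap for 8 of 10, but all genes without overlap rose to 1248 of 15805 tested. The 6 became 3 without 5ELKO replicate 1, 4 without the library labelled ELKO replicate 1 and 4 without ELKO replicate 3. Without the library labelled ELKO replicate 1, 87 of all genes tested were called higher, against 56 with all libraries.

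The order of the libraries was compared next, since a transform that only compresses the values of a gene leaves that order in place. At the low end the order of Alb, Fga, Fgb and Gc is not read, as described below. The comparison is therefore of the high libraries. For 5 of the 10 members (Alb, Fga, Gc, Ambp and Ahsg) the 5 highest libraries were the 4 of 5ELKO and EL replicate 1. The highest library was 5ELKO replicate 1 for 5 members (Fgb, Hp, Ambp, Ahsg and Apoa2), EL replicate 1 for 4 (Alb, Fga, Gc and Apoa1) and 5ELKO replicate 3 for Apoc3. Which libraries were high was therefore shared by much of the list, while the highest of them varied by gene. EL replicate 1 and 5ELKO replicate 1 were near ties for Fgb, Gc, Ahsg, Apoa1 and Apoa2. They differed there by less than the median within-group SD of genes at a like level. For these genes the choice between the 2 libraries is not read as a difference. Within 5ELKO, replicate 1 came first for 8 members and replicate 3 for Alb and Apoc3, replicate 2 came last for 6, replicate 4 for 3 and replicate 3 for 1, and the 10 genes gave 6 different orders.

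**Figure D2:**
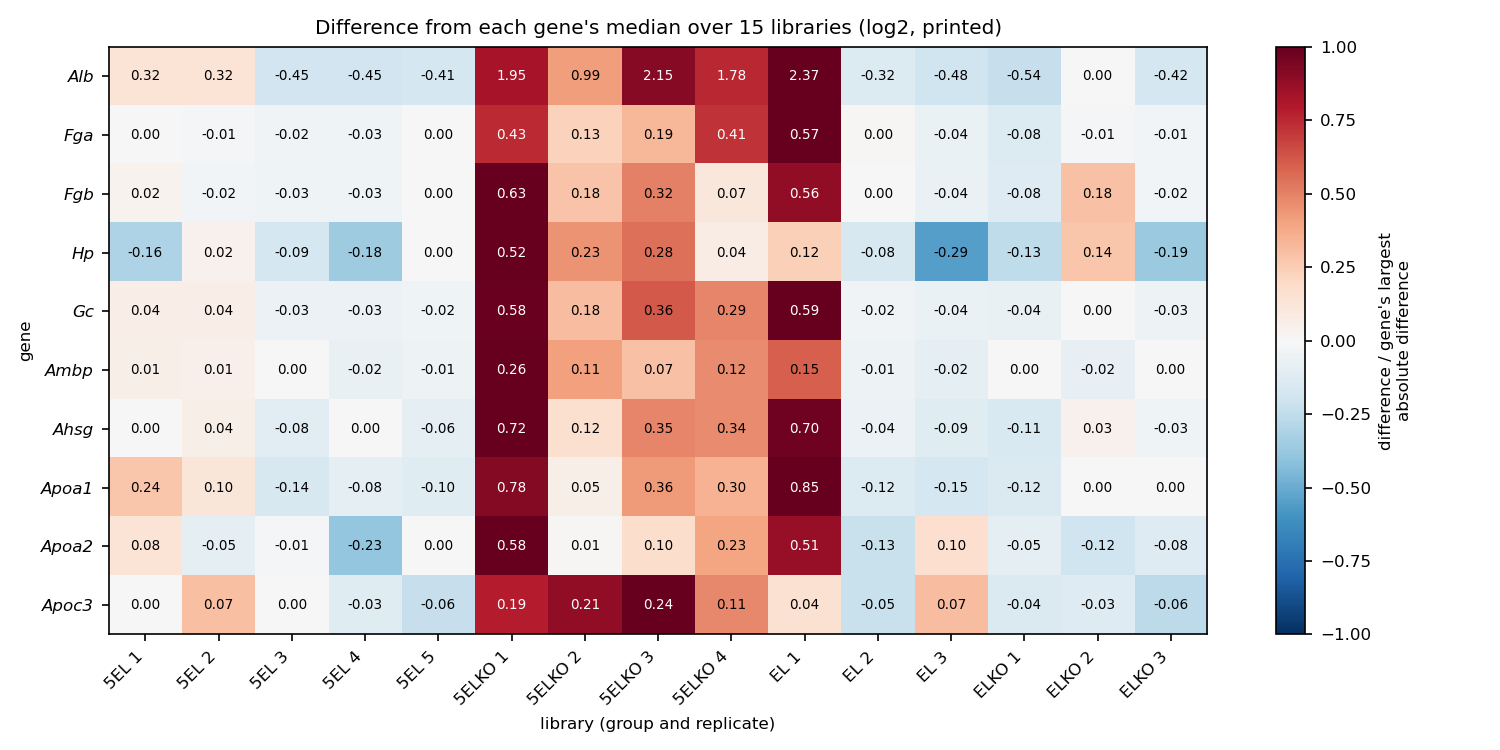
Difference of each gene from its own median over the 15 libraries, printed in log2, with libraries along the horizontal axis and genes along the vertical; colour shows the difference divided by that gene's largest absolute difference. The 4 5ELKO libraries and EL replicate 1 stand out for most genes; in EL replicate 1 the differences run from 0.04 for Apoc3 to 2.37 for Alb.

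The high libraries differed from each other by gene. EL replicate 1 was above 5ELKO replicate 1 by 0.41 for Alb and by 0.15 for Fga, level with it for Gc (0.01) and Ahsg (-0.02), and below it for Hp (-0.40) and Apoc3 (-0.15). For scale, the median within-group SD of genes at a like level was 0.12 at the level of Alb, 0.077 at that of Fga, 0.087 at that of Hp and 0.078 at that of Apoc3. Alb and Hp thus stood in opposite order in these libraries, each by more than the SD of genes at its level. A comparison of 2 single libraries has no replicate.

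Alb and Apoa1 gave another such pair. From 5ELKO replicate 3 to 5ELKO replicate 1, Alb differed by -0.20, while Apoa1 differed by 0.42, Apoa2 by 0.48 and Ahsg by 0.37. Replicate 3 was thus the higher library for albumin and the lower for both high-density lipoprotein genes. Apoc3 differed by -0.05, which is less than the SD of 0.078 at its level.

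The fibrinogen chains gave the closest comparison, being chains of 1 protein at a like level. Fga minus Fgb, in log2, had a median of -0.14 over the 15 libraries and lay between -0.144 and -0.141 in 8 of them. In 7 of these 8, Fga and Fgb had only the order of genes at the bottom of the scale described below, so the steady difference there is not read as a kept proportion. In 5ELKO it was -0.34, -0.20, -0.27 and 0.20 in replicates 1 to 4. Replicate 4 was the only library with Fga above Fgb, and ELKO replicate 2 had -0.33. From 5ELKO replicate 4 to replicate 3, Fgb was higher by 0.25 and Fga differed by -0.23, against an SD of 0.082 and 0.077 at their levels. The difference between the genes does not compare their transcript numbers, because the values are not per length, and only its change between libraries is read here.

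The neighbours Apoa1 and Apoc3 were further apart. Apoa1 minus Apoc3 ran from -0.02 in EL replicate 3 to 1.01 in EL replicate 1, with 0.79 in 5ELKO replicate 1 and 0.03 in 5ELKO replicate 2. Both genes were measured as high in 5ELKO replicate 1 relative to their own medians, by 0.78 and 0.19, whereas in 5ELKO replicate 2 the order was turned, with 0.05 for Apoa1 and 0.21 for Apoc3. Apoa1 minus Apoa2 ran from -1.34 to -0.75, with an SD of 0.16.

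A gene that keeps a fixed proportion to Alb on an uncompressed log2 scale has a slope of 1 on it. Over the 15 libraries the least squares slope on Alb was 0.27 for Apoa1, 0.23 for Ahsg, 0.20 for Gc, 0.17 for Fga, 0.17 for Fgb, 0.16 for Apoa2, 0.15 for Hp, 0.07 for Apoc3 and 0.07 for Ambp, with a median of 0.17. All 9 were positive and far under 1. On the mean of the other members in place of Alb, the median slope was 1.04. Genes that vary together tend to have slopes near 1 on their own mean. This value therefore does not show why the slopes on Alb were low. Since low genes appear compressed and the transform is not given in the sources used here, the slopes do not show by themselves that proportions changed. The spread about the lines carries the comparison between libraries: its SD was under that of genes at a like level for Gc (0.071 against 0.074), Ambp (0.043 against 0.059) and Apoc3 (0.071 against 0.078), and over it for the other 6, up to 0.15 against 0.087 for Hp. For Gc this SD takes in the 7 libraries, described below, in which Alb and Gc had only the order of the lowest genes. Its distances from the line there were 0.0077 to 0.030, and reached 0.16 in the other libraries. The smaller SD of Gc is therefore not read as a kept proportion. The library farthest from the line was 5ELKO replicate 1 for 6 genes, in each case above it (0.28 for Hp, 0.28 for Apoa2, 0.25 for Apoa1, 0.25 for Ahsg, 0.16 for Gc and 0.12 for Ambp). It was 5ELKO replicate 3 for Fga (-0.20), 5ELKO replicate 4 for Fgb (-0.27) and EL replicate 1 for Apoc3 (-0.14). Without the library labelled ELKO replicate 1 no slope moved by more than 0.0034, the same 3 genes had the smaller SD and the farthest library was the same for all 9.

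**Figure D3:**
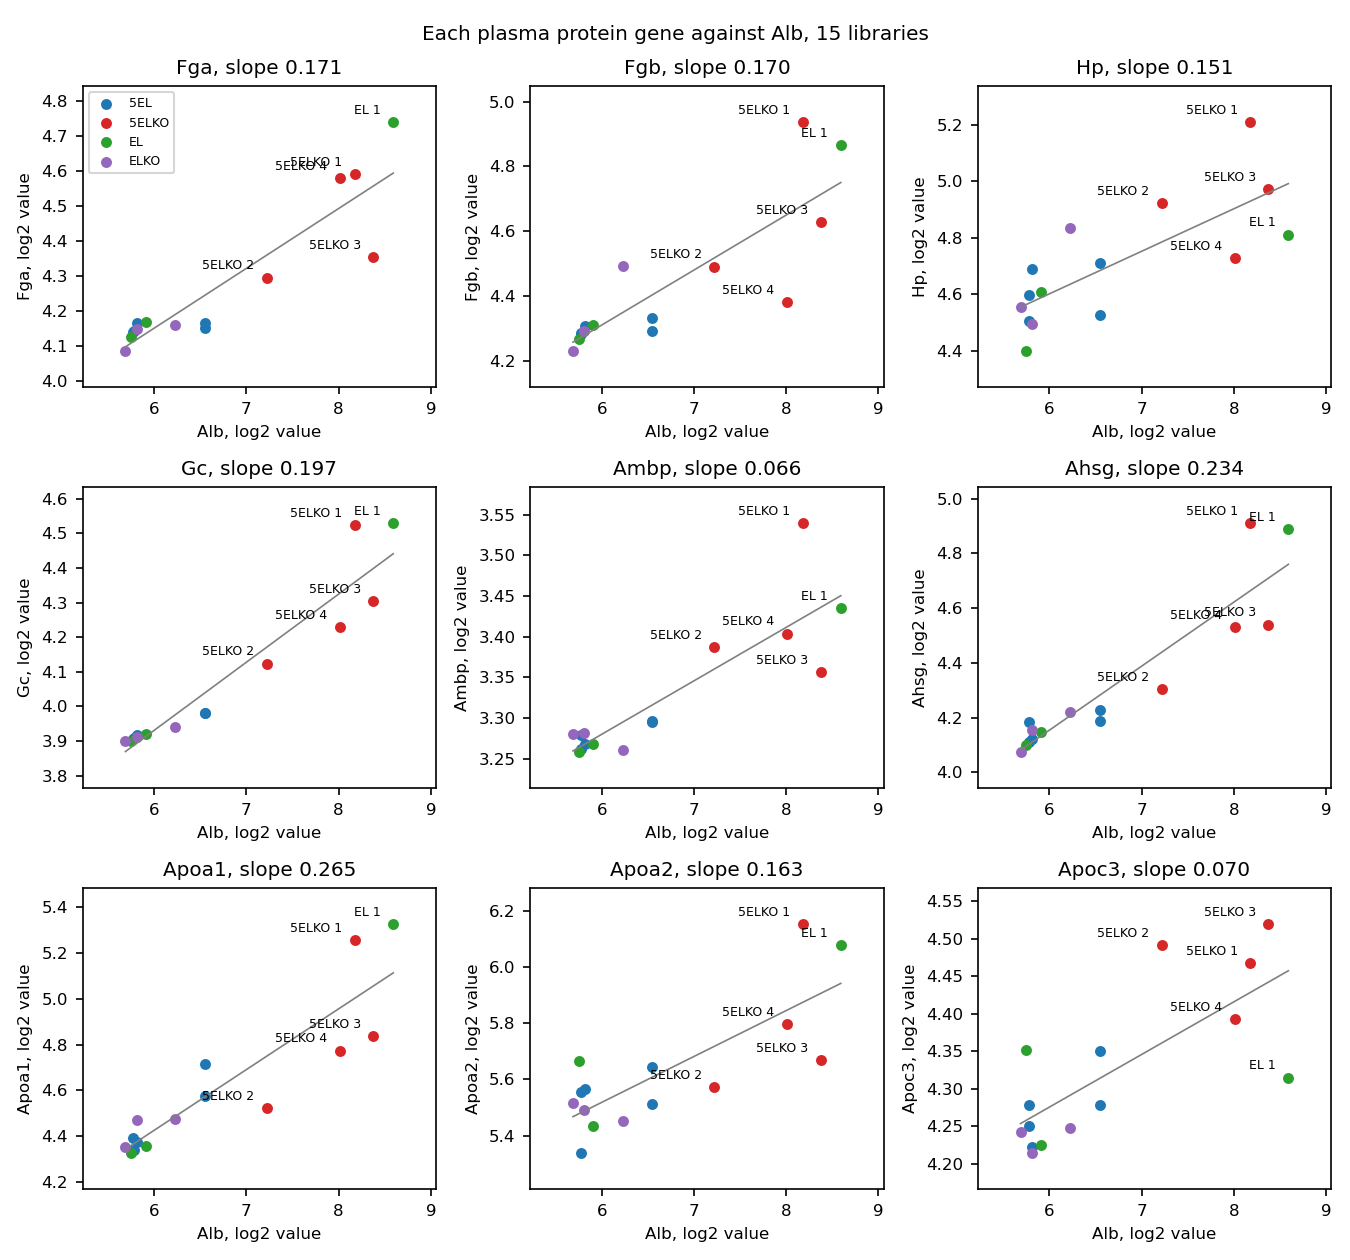
Log2 expression of each of the other 9 genes (vertical axes) against that of Alb (horizontal axis) in the 15 libraries, coloured by group, with the least squares line. Slopes run from 0.07 for Ambp to 0.27 for Apoa1, and 5ELKO replicate 1 is the farthest point from the line for 6 of the 9 genes.

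At the low end the values of several members carried no order of their own. In the files, 4369 genes shared all 15 values with at least 1 other gene, and 204 genes shared the lowest such set, in which the order of the libraries cannot come from their levels. In the 7 libraries lowest for Alb (EL replicates 2 and 3, 5EL replicates 3, 4 and 5, ELKO replicates 1 and 3), Alb, Fga, Fgb and Gc stood in exactly the order of that set. Of the 15805 genes tested, 18 did so (0.114%), and 9 of the 14 that are no members were on the lists of other plasma proteins and liver enzymes, Apob, Mug1, Serpina1a and Fabp1 among them. These genes were found after their values were seen. For Alb, Fga, Fgb and Gc, differences among those 7 libraries are therefore not read as differences in level. Hp, Ambp, Ahsg, Apoa1, Apoa2 and Apoc3 did not have this order.

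The 10 genes outside the list whose log2 values were most like those of Alb over 15 libraries, by Pearson's r, were Serpinc1 (0.97), Serpina3k (0.97), Fgg (0.96), Serpina1a (0.96), Mug1 (0.95), Serpina1e (0.95), Mup3 (0.94), Serpina1b (0.93), Tat (0.93) and Hpx (0.93). They include antithrombin, the fibrinogen gamma chain, alpha-1-antitrypsins and hemopexin, and 9 of the 10 were on the plasma protein or liver enzyme lists, the exception being the major urinary protein Mup3. Without EL replicate 1, 9 of the 10 were again on the list and Cps1 (0.91) replaced Tat. Without the library labelled ELKO replicate 1 the 10 genes were the same. These correlations share their libraries and compression and are given as measures of likeness only. Serpinc1 reached the minimum only in 5ELKO libraries and EL replicate 1, so the filter favoured its likeness to Alb. The serpins Serpina1a, Serpina1b and Serpina1e and the Mup genes are near-identical copies that can share reads, so their separate values are uncertain.

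Other secreted plasma proteins of liver had a smaller median difference in 5ELKO against 5EL than the members, which were listed with this contrast known. That choice favours such a gap, which is therefore not read as a result. Serpina3k and Serpina1e differed by more than every member but Alb. Of the 61 on the list, 23 were tested in 5ELKO against 5EL, and 19 of them had a positive difference, with a median of 0.12. Called higher were 3 (Serpina3k 0.68, Serpina1e 0.51 and Serpina1b 0.30), where 0.165% of all genes tested were. None was called lower, where 0.0889% were. The groups did not overlap for 9, among them Fgg (0.25) and Hpx (0.24), against 0.603% of all genes tested. Serpina1d, also among the 9, had a 5EL mean of 3.31, under the minimum, and all 5ELKO libraries above it, so the filter favoured it. Their summed linear level, which is led by Lcat and F5, was 1027 to 1280 in 5EL, 1070 to 1160 in 5ELKO, 1036 to 1133 in EL and 1009 to 1337 in ELKO, so the sum did not separate the groups. In ELKO against EL, 5 of 24 were positive, with a median of -0.09, and 0 were called; without the library labelled ELKO replicate 1, 5 were positive, with a median of -0.07, and 0 were called. Hepatocyte enzymes, which are not secreted, moved alongside: 16 of 16 tested had a positive difference in 5ELKO against 5EL, with a median of 0.15. Of these, 3 were called higher (Mat1a 0.41, Bhmt 0.38 and Cyp2e1 0.37), against 0.165% of all genes tested. In ELKO against EL, 3 of 18 were positive and 0 were called, and without that library 4 were positive and 0 were called. Of the 26 enzymes, 18 reached the minimum, and their sum, led by Ass1, was 1612 to 2017 in 5EL, 1930 to 2022 in 5ELKO, 1236 to 2112 in EL and 1725 to 1847 in ELKO. All 18 had a positive slope on Alb (median 0.10), as had 19 of 24 of the other plasma proteins (median 0.08), with the same counts without that library. Some of these genes, Serpinc1 and Fabp1 for example, reached the minimum only in 5ELKO libraries and EL replicate 1. Their positive slopes follow from that filter and are not support for a shared movement. Whether liver transcript accounts for any of the members' differences was not tested.

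**Figure D4:**
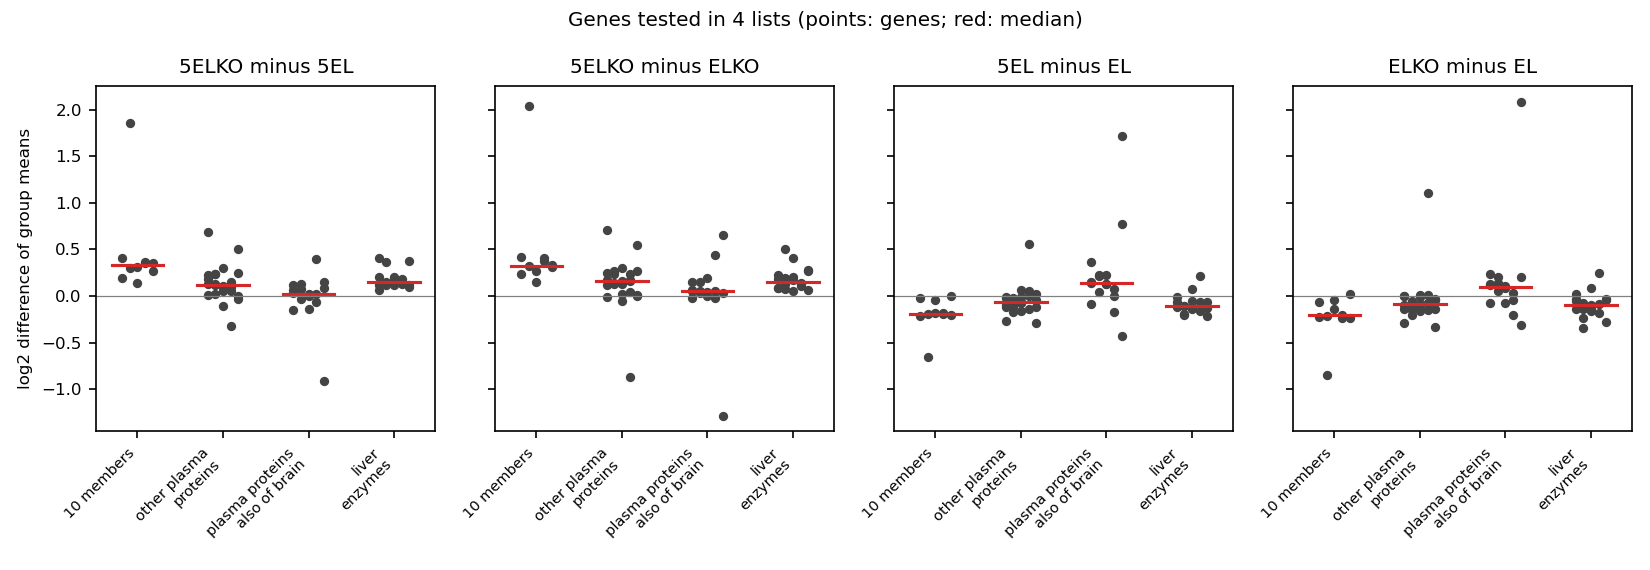
Log2 difference of group means (vertical axis) in 4 contrasts for each gene tested (points) of the 10 genes, other plasma proteins, plasma proteins also made by brain cells and liver enzymes, with red bars at list medians. For the 10 genes the median is 0.33 in 5ELKO minus 5EL and -0.21 in ELKO minus EL, and for the plasma proteins that brain cells make the medians are 0.03 and 0.10.

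Plasma proteins that brain cells also make gave a different picture. Of the 16 on that list (Ttr, Trf, Clu, Cst3, C3 and others), 10 had a positive difference in 5ELKO against 5EL, with a median of 0.03. Only the complement gene C3 (0.40) was called higher, against 0.165% of all genes tested. Their median slope on Alb was 0.0057, and -0.0033 without the library labelled ELKO replicate 1. Liver transcription factors were mostly under the minimum, with 4 of 13 reaching it, and the 4 had a median difference of 0.06 in 5ELKO against 5EL with 0 called. Those that reached it include Prox1 (mean 11.2) and Cebpa (mean 7.73), which brain cells also express. The summed linear level of the list, which is led by Prox1, was 2223 to 2776 in 5EL, 2305 to 2835 in 5ELKO, 2444 to 3017 in EL and 2402 to 2793 in ELKO. It therefore says little of the factors under the minimum.

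Markers of other sources of these transcripts were also read. Of the enterocyte markers, which bear on Apoa1 and Apoc3, 1 of the 5 in the files (Vil1) reached the minimum, and the sum was 94.9 to 124 in 5EL, 106 to 122 in 5ELKO, 117 to 134 in EL and 102 to 123 in ELKO. Of the kidney markers, 3 of the 4 in the files did, with sums of 54.8 to 63.0 in 5EL, 55.2 to 58.6 in 5ELKO, 52.4 to 56.9 in EL and 53.2 to 60.1 in ELKO. The choroid plexus list had 12 of 12 markers above the minimum and 0 of 12 positive differences in 5ELKO against 5EL, and its median slope on Alb was -0.06. The erythroid list, 3 of 5 above the minimum, was 130 to 165 in 5EL, 124 to 194 in 5ELKO, 149 to 695 in EL and 112 to 123 in ELKO. Within EL its lowest sum was that of replicate 1, the library in which most members were highest. ELKO replicate 2, in which Fgb and Hp were high, and 5EL replicate 1, in which Apoa1 was highest of its group, were the libraries with the highest choroid plexus sums of their groups, and the part of those cells in these values was not tested.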

How the data were processed

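RNA of thalamus was sequenced in 15 libraries. Per the submitters' processing notes and the study's methods, reads were trimmed with Trimmomatic 0.39, aligned to GRCm38 with HISAT2 2.2.1 and counted by gene name without strand with featureCounts 2.0.3, and DESeq2 1.38.3 was used. The authors deposited log2 values (-2.27 to 18.98); the transform and the annotation release are not given in the sources used here. The study lists total reads for the 5EL and 5ELKO libraries, but the deposited values hold no counts per gene, so precision per gene was not derived from read numbers and no count model was run. Members and gene lists were chosen with earlier results of these data known.

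Genes at a log2 value equal to about 10 on the linear scale or more in at least 4 of 9 libraries (15746 genes, 5ELKO against 5EL) or 3 of 15 (15805 genes, the other contrasts) were fitted with limma 3.58.1 in R 4.3.3 (eBayes with trend, Benjamini-Hochberg adjustment over all genes tested), which was tested on simulated data. Slopes, orders and ratios are descriptions, drawn with matplotlib 3.10.9 in Python 3.11.15. Named are all members, the 10 genes most like Alb and up to 5 genes of highest mean per list; any other gene was picked with its values in view. Of 29659 symbols, 28214 were in GENCODE M21. All 105 pairs of libraries were compared and 0 were identical.

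EL and ELKO libraries with the same number shared part of their deviation from the group means (correlations of 0.453, 0.325 and 0.742). Same-numbered 5EL and 5ELKO libraries did not. For replicates 1 and 3 of ELKO the highest correlation with another number in EL was lower, at 0.295 and -0.469. For replicate 2 it was higher, at 0.376, so the numbers pair these libraries only in part. The labels do not say what same-numbered libraries share. Alternatives were no filter, no trend, robust estimation, recentred libraries, a replicate block, other sets of libraries and each library left out.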

Additional observations from a re-analysis of the deposited data

How the results depend on the processing

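With the replicate number as a block, genes called at the study's threshold numbered 70 against 40 in 5ELKO against 5EL, where the numbers do not pair the libraries (same-number correlations of -0.0674, -0.244, -0.0256 and 0.143), and 288 against 85 in ELKO against EL. With the block 8 members were called higher in 5ELKO against 5EL and 0 in ELKO against EL, as without it, and 8 against 6 in 5ELKO against ELKO. The fit on the 6 EL and ELKO libraries called 45. Leaving out 1 library gave 42 to 85 called genes in 5ELKO against 5EL (85 without 5EL replicate 2, 73 without 5EL replicate 1 and 73 without 5ELKO replicate 1), and 40 to 914 in ELKO against EL (914 without EL replicate 1, 667 without ELKO replicate 3, 43 without ELKO replicate 2 and 40 without EL replicate 3). It gave 86 to 1429 in 5EL against EL, where all libraries gave 381 (1429 without EL replicate 1, 244 without 5EL replicate 2 and 86 without EL replicate 3). In 5ELKO against ELKO it gave 43 to 158, where all gave 63 (158 without the library labelled ELKO replicate 1, 105 without 5ELKO replicate 2 and 100 without ELKO replicate 3). The members called higher were 4 to 8 and 3 to 7 in the contrasts of 5ELKO with 5EL and with ELKO, the lowest without 5ELKO replicate 1. In ELKO against EL, leave-one-out differences ran from -1.34 to 0.077 for Alb, -0.25 to 0.049 for Fgb, -0.081 to 0.12 for Hp, -0.31 to 0.0071 for Gc, -0.077 to 0.011 for Ambp, -0.37 to 0.026 for Ahsg and -0.41 to 0.091 for Apoa1. Every positive end came without EL replicate 1. Those of Alb, Fgb and Gc rested mostly on libraries with only the order of the lowest genes. Hp, at 0.02 with all libraries, was -0.08 without EL replicate 3 and -0.08 without ELKO replicate 2. The median slope on Alb was 0.17, 0.14 to 0.20 with 1 library left out, and 1.04 on the mean of the other members in place of Alb. The causes were not tested. Counts per gene are not in the deposited values, and the narrow spread of low values limits what can be read from Ambp, Fga and Gc.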

Other observations

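For comparison with the slopes on Alb, chosen after the data were seen, 11 choroid plexus genes had slopes of 0.12 to 0.61 on Ttr over the 15 libraries, with a median of 0.33, so the genes of a list whose sum differed widely between libraries also had slopes under 1 on Ttr. The 9 members on Alb had 0.07 to 0.27.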
